A study of Saccharomyces cerevisiae with 29 samples.

Results

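Lower glycolysis is the stretch of the pathway that splits fructose-1,6-bisphosphate into triose phosphates and converts these to pyruvate. The 10 genes described here encode its enzymes in budding yeast: FBA1, TPI1, TDH1, TDH2, TDH3, PGK1, GPM1, ENO1, ENO2 and CDC19. They were chosen by name, and selected on the short distance that earlier results of the same annotation had shown between several of them and an annotated replication origin. All 10 were found among the 5857 protein-coding genes of the annotation. They cover 7 reactions, with 3 gene copies for glyceraldehyde-3-phosphate dehydrogenase and 2 for enolase, on 7 of 16 chromosomes.

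The study made 29 libraries from 14 yeast strains by HydEn-seq, which sequences the DNA ends left where alkali cuts genomic DNA at a ribonucleotide. The strains were WT, pol1-L868M, pol1-Y869A, pol2-M644G, pol2-M644L, pol3-L612G and pol3-L612M, and each of these 7 backgrounds together with rnh201-delta, all grown to mid log phase in rich YPDA medium. The data used here were the deposited annotation of L03, a reference genome built for these strains, and the ribonucleotide ends of the libraries were not analysed here. No value below therefore belongs to a library or a strain, and there are no replicates, depths or tests.

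Glucose-grown yeast ferments, and the lower glycolytic enzymes are among the most abundant proteins of such cells, made from some of the most heavily transcribed genes in the genome. DNA polymerase epsilon makes most of the leading strand and DNA polymerases alpha and delta make the lagging strand, so the place of a gene relative to origins decides which polymerase would copy which of its strands. If a gene is transcribed away from an origin, a fork leaving that origin would travel in the direction of transcription, and the new leading strand would have the sense of the coding strand. Whether forks do so at these genes was not measured in the annotation.

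Distances below run from the midpoint of a gene to the midpoint of an origin, on L03 coordinates (ref_v2) numbered from 1. A gene between origins on both sides always points away from the origin on its 5′ side and toward the origin on its 3′ side, so "away" and "toward" refer to the nearer origin. The nearest origin lay within 5 kb for 7 of the 10 genes, against 20.2% of all genes. The 7 were TPI1, TDH2, TDH1, ENO1, CDC19, FBA1 and ENO2, in order of distance from 0.751 kb to 4.25 kb. TDH3 and PGK1 lay just beyond, at 5.16 kb and 6.21 kb. GPM1 lay 11.0 kb from its nearest origin, not far below the median of 13.5 kb over all genes, so "near an origin" does not describe it. The median of the 10 was 2.51 kb, and 4.25 kb over the 7 genes that are left without the copies TDH1, TDH2 and ENO1. These distances were known when the genes were chosen and are given as a description.

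**Figure D1:**
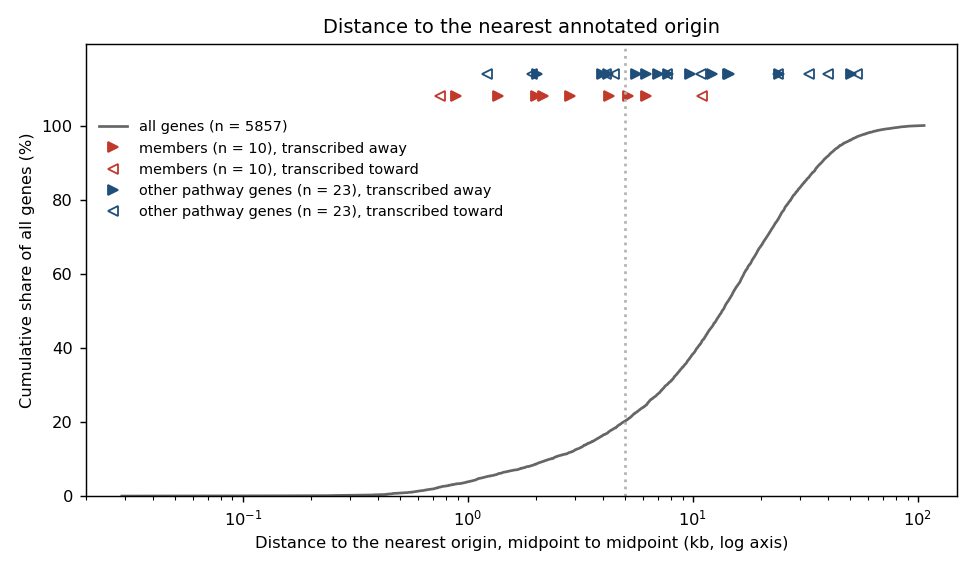
The line gives the cumulative share of all 5857 genes (y axis, in %) by distance to the nearest origin (x axis, in kb on a log scale), and the dotted line marks 5 kb. Triangles above it give the 10 lower glycolysis genes (red, 0.751 kb to 11.0 kb) and 23 other pathway genes (blue, 1.21 kb to 53.9 kb), filled where the gene is transcribed away from its nearest origin; their height carries no value.

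Of the 10 genes, 8 were transcribed away from their nearest origin, against 49.6% of all genes. TPI1 and GPM1 were the exceptions. Being both within 5 kb and transcribed away held for 6 of the 10, against 9.25% of all genes. The genes were chosen with earlier results of this annotation known, so these counts too are a description and were not tested. The 10 nearest origins were 10 different ones, and 0 of them carried a qualifier of experimental evidence in the annotation, which 4 of all 274 origins carried. Strand itself was balanced, with 5 genes on the plus strand and 5 on the minus strand.

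**Figure D2:**
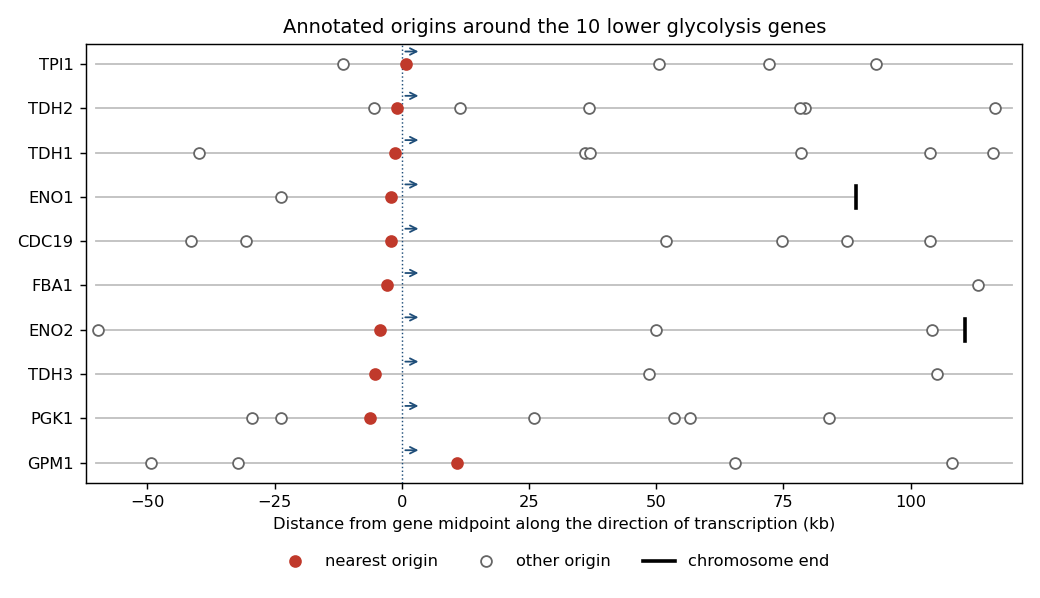
Origins around each lower glycolysis gene, turned so that every gene is transcribed to the right from 0, with the distance from the gene midpoint in kb on the x axis. Red circles mark the nearest origin, which lies to the left of 0 for 8 genes and to the right for TPI1 (0.751 kb) and GPM1 (11.0 kb); open circles mark other origins and black bars chromosome ends.

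FBA1 (YKL060C), the single aldolase gene, which splits the hexose bisphosphate, lay on the minus strand of chromosome XI from 326062 to 327141. ARS1109 lay 2.86 kb away on its 5′ side, with MPE1, for a subunit of the mRNA cleavage and polyadenylation factor, between them. FBA1 and MPE1 ran in tandem, so both pointed away from ARS1109. On the other side the next origin, ARS1127, was 113 kb distant. The stretch of 116 kb between these origins was the 6th longest of 258 in the genome, and FBA1 sat at its very edge, at 2.46% of its length. Among the 9 genes with an origin on both sides, FBA1 had the most lopsided position, with the farther origin 39.7 times as distant as the nearer.

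TPI1 (YDR050C), for the triose phosphate isomerase that interconverts the aldolase products, lay on the minus strand of chromosome IV from 555641 to 556387. It had the shortest distance of the 10, 0.751 kb to ARS418, and that origin lay beyond its 3′ end. ARS418, 237 bp long, lay in the 573 bp gap to the convergent gene YDR049W (VMS1 in the R64 gene table), with 259 bp left on the TPI1 side and 77 bp on the other. TPI1 therefore pointed toward the origin closest to it. ARS419 lay 11.5 kb away on the 5′ side, and the stretch between the origins, 12.3 kb, was among the shorter ones, 218th of 258.

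The 3 genes for glyceraldehyde-3-phosphate dehydrogenase, the enzyme that oxidises the triose phosphate and makes NADH, had coding sequences of the same length, 999 bp for 332 residues, and all pointed away from their nearest origin. Their surroundings differed. TDH1 (YJL052W), an isoenzyme associated with slow growth and stress, lay on the plus strand of chromosome X from 338052 to 339050, at 1.36 kb from ARS1011. The reading frame YJL052C-A, 120 bp long and without a qualifier of experimental evidence, stood between them on the opposite strand, 266 bp from TDH1. Its presence in the annotation is what keeps ARS1011 from lying in the gap beside TDH1. With neighbours restricted to genes whose coding sequence carries such a qualifier, the gap held ARS1011 and ran 1231 bp to the tandem gene PEP8. That restriction was chosen after the positions were seen. On the 3′ side of TDH1 the next origin, ARS1012, was 36.1 kb away.

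TDH2 (YJR009C) lay on the minus strand of the same chromosome from 453336 to 454334, 0.888 kb from ARS1016. It was the single gene of the 10 that shared bases with its nearest origin: ARS1016 was annotated from 454237 to 455208, so that 98 bp of it lay in the first part of the TDH2 coding sequence. At 972 bp this origin was long against a median of 247 bp over all origins. The rest of it lay in the 1557 bp gap to MET3, for the ATP sulfurylase of sulfate assimilation, which is transcribed the opposite way and began 683 bp beyond it. TDH2 and MET3 thus flanked ARS1016 as a divergent pair, each pointing away from it. Another origin, ARS1015, lay 11.4 kb on the 3′ side.

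TDH3 (YGR192C), the major isoenzyme during growth on glucose, lay on the minus strand of chromosome VII from 882726 to 883724, farther from an origin than the other copies, at 5.16 kb from ARS737. PDX1, for a component of the mitochondrial pyruvate dehydrogenase complex, and XKS1, for xylulokinase, lay in between, and all 3 genes were transcribed in the same direction, away from ARS737. On the 3′ side ARS731 was 48.7 kb away. The copies on chromosome X were 115 kb apart, on opposite arms and strands, with 4 origins and the centromere between them.

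PGK1 (YCR012W), for the phosphoglycerate kinase that makes the first ATP of the pathway's lower part, lay on the plus strand of chromosome III from 136091 to 137341. ARS309 lay 6.21 kb away on the 5′ side and ARS310 26.0 kb away on the 3′ side. The genes between PGK1 and ARS309, ADP1 for a putative ABC transporter and ADY2, were on the opposite strand and so pointed toward the origin from which PGK1 pointed away.

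GPM1 (YKL152C), for phosphoglycerate mutase, lay on the minus strand of chromosome XI from 163646 to 164389, between ARS1106 at 11.0 kb on its 3′ side and ARS1126 at 32.2 kb on its 5′ side. It had the most central position of the 9 genes with 2 flanking origins, at 25.4% of the stretch. There were 6 genes between GPM1 and ARS1106, on both strands, against at most 2 for any other gene of the list. GPM1 and FBA1 shared chromosome XI and strand but lay 163 kb apart with 2 origins between them.

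The enolase genes encode isoenzymes that make phosphoenolpyruvate, with ENO2 induced by glucose and ENO1 the less glucose-dependent copy. Both had coding sequences of 1314 bp for 437 residues and both pointed away from their nearest origin. ENO1 (YGR254W) lay on the plus strand of chromosome VII from 1000848 to 1002161, 2.01 kb from ARS734, which stood in the 1786 bp gap between ENO1 and the divergent proteasome gene PUP2. ARS734 was the last annotated origin on that arm, and the sequence from ENO1 to the chromosome end, 89.4 kb, held 0 annotated origins. ENO1 and TDH3, on the same arm, were 118 kb apart with 3 origins between them.

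ENO2 (YHR174W) lay on the plus strand of chromosome VIII from 451336 to 452649, 4.25 kb from ARS820, with SPC97, for a subunit of the gamma-tubulin complex, in between. The next origin on the 3′ side, ARS822, was 49.9 kb away. All 9 other analysed genes within 10 kb of ENO2 were on its strand, which held for 1.02% of all genes and for 1 of the 10. That run was noticed in the data and is given as a description. It does not count YHR173C, which the R64 gene table places between SPC97 and ENO2, whose systematic name puts it on the opposite strand, and which was not among the genes analysed; with it, neither the run nor the tandem 5′ gap of ENO2 would hold.

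CDC19 (YAL038W), for the main pyruvate kinase, which yields the last ATP, lay on the plus strand of chromosome I from 71498 to 73000. ARS106 lay 2.16 kb away in the 2260 bp gap to the divergent gene CYC3, for cytochrome c heme lyase, with 1296 bp between the origin and CDC19 and 731 bp between the origin and CYC3. The 3′ side was long without an origin, with ARS107 at 51.9 kb. CDC19 had the longest coding sequence of the 10, 1503 bp, close to the 1521 bp of its minor paralog PYK2. The minor paralogs of GPM1 differed more in length, with 936 bp for GPM2 and 912 bp for GPM3 against 744 bp.

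**Figure D3:**
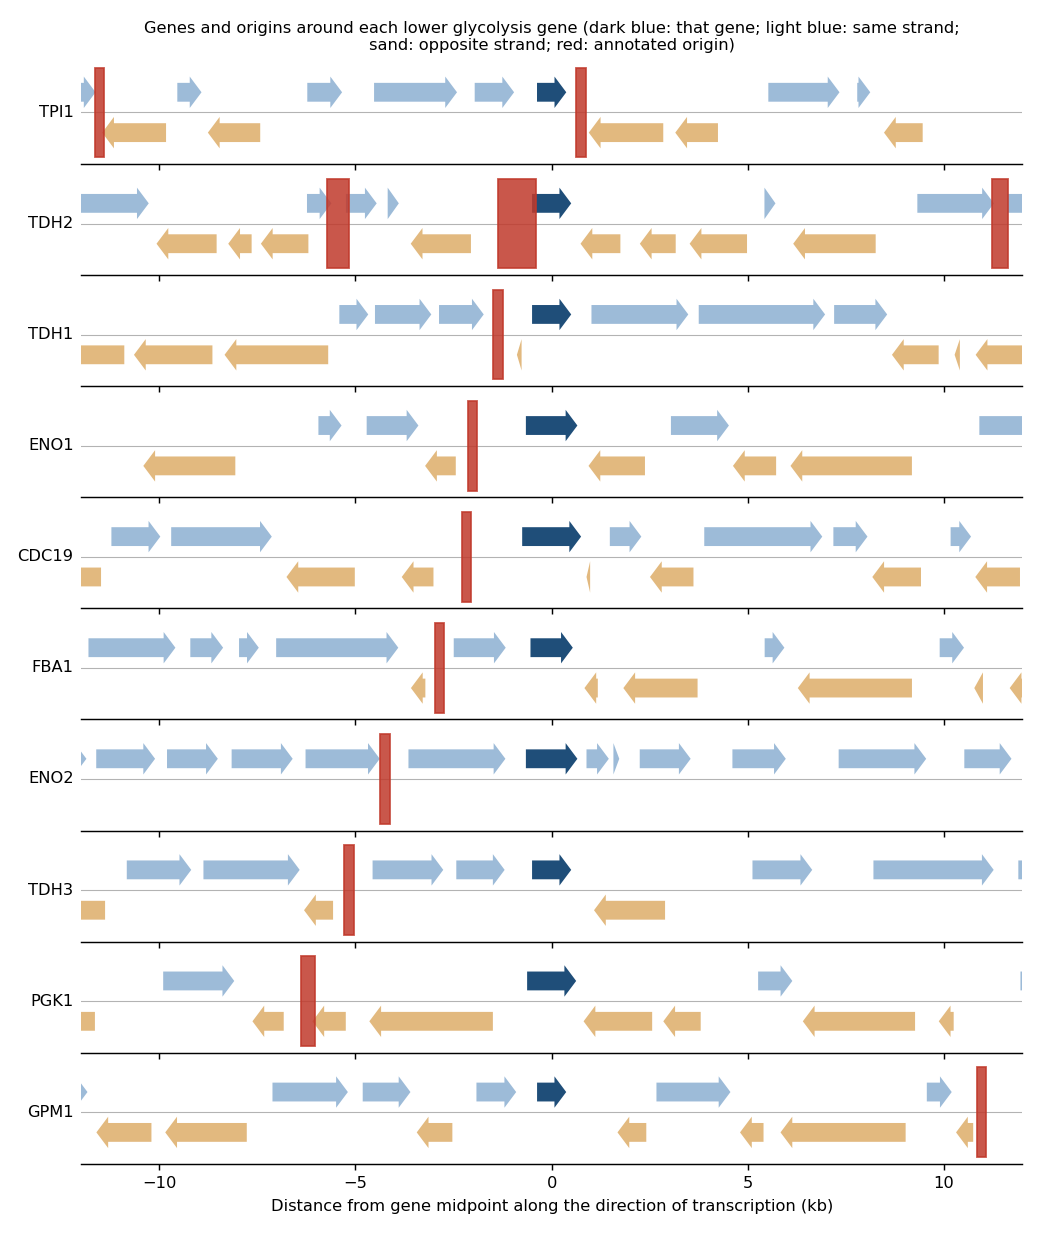
Maps of 12 kb on each side of every lower glycolysis gene (dark blue), turned so that it is transcribed to the right, with distance in kb on the x axis. Arrows above the line are genes on the same strand and arrows below it genes on the opposite strand, and red boxes are origins; the box of ARS1016 overlaps the start of TDH2, and the row of ENO2 has no arrow below the line.

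An origin stood directly in a gap beside 4 of the 10 genes, TPI1, TDH2, ENO1 and CDC19, against 8.83% of all genes. In 3 of these the origin was in the gap beyond the 5′ end, against 3.74% of all genes, and in TPI1 it was beyond the 3′ end, against 5.14%. Since the genes were chosen for lying close to origins, nothing is read from these counts. Of the 10 nearest origins, 6 lay between divergent genes, against 17.2% of all origins, and 2 each between convergent and between tandem genes. The divergent ones were ARS1016, ARS734 and ARS106 beside TDH2, ENO1 and CDC19, and ARS1109, ARS737 and ARS1106, whose flanking pairs did not include a gene of the list. A gene that borders an origin and points away from it cannot be of a convergent pair, so the first 3 are not independent of the direction of transcription.

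Gaps were not what the genes were chosen by. Over all genes, however, 5′ gaps that held an origin were longer, so gap length is not independent of the choice. The 5′ gap, from the start of the coding sequence to the next protein-coding gene, holds the 5′ untranslated sequence and the promoter. It was divergent for 5 of the 10 genes, TDH1, TDH2, PGK1, ENO1 and CDC19, against 52.1% of all genes, and tandem for the other 5. The 3′ gap was convergent for 8 of the 10, against 52.0% of all genes, with TDH1 and ENO2 the tandem exceptions. The 3′ gap of GPM1, 1306 bp, also held the tRNA gene TR(UCU)K on the strand of GPM1, 1083 bp away, and counting noncoding genes as neighbours would make 7 of 10 convergent.

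The 5′ gaps ran from 266 bp at TDH1 to 2260 bp at CDC19, with a median of 664 bp, and 9 of the 10 were longer than the median of 460 bp over all genes. TDH1 was the exception, its gap ending at YJL052C-A. With all protein-coding neighbours, the 3 gaps that held an origin were the longest of the 10, at 1557 bp, 1786 bp and 2260 bp, and the other 7 did not reach beyond the 872 bp of PGK1. The same order held over all genes, where 5′ gaps with an origin had a median of 1127 bp and those without had 450 bp. A long gap and an origin in it thus went together in general. The 3 gaps of the list that held an origin were all divergent. Over all divergent 5′ gaps the median was 1540 bp with an origin and 523 bp without. The 5 tandem 5′ gaps, none with an origin, lay in a narrow range of 521 bp to 698 bp, against a median of 405 bp over all tandem 5′ gaps. Both statements depend on which genes count as neighbours. With neighbours restricted to genes with experimental evidence, the 5′ gap of GPM1 became divergent, at 2158 bp to MCR1, and that of TDH1 became tandem and held ARS1011. The tandem 5′ gaps then ran from 521 bp at ENO2 to 2038 bp at TPI1, and the gaps of GPM1 and TPI1, without an origin, were longer than those of TDH2 and ENO1.

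With both types pooled, the 3′ gaps were nearer to the genome's own, from 137 bp at CDC19 to 1306 bp at GPM1. Their median was 289 bp, against 307 bp over all genes, and 4 of 10 were above the median of all genes. By type, the 8 convergent 3′ gaps had a median of 289 bp, against 230 bp over all convergent 3′ gaps. The 2 tandem ones had a median of 373 bp, against 405 bp. The 5′ gap was the longer of a gene's pair of gaps in 8 of the 10, against 68.8% of all genes, and TDH1 and GPM1 had it the other way round.

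**Figure D4:**
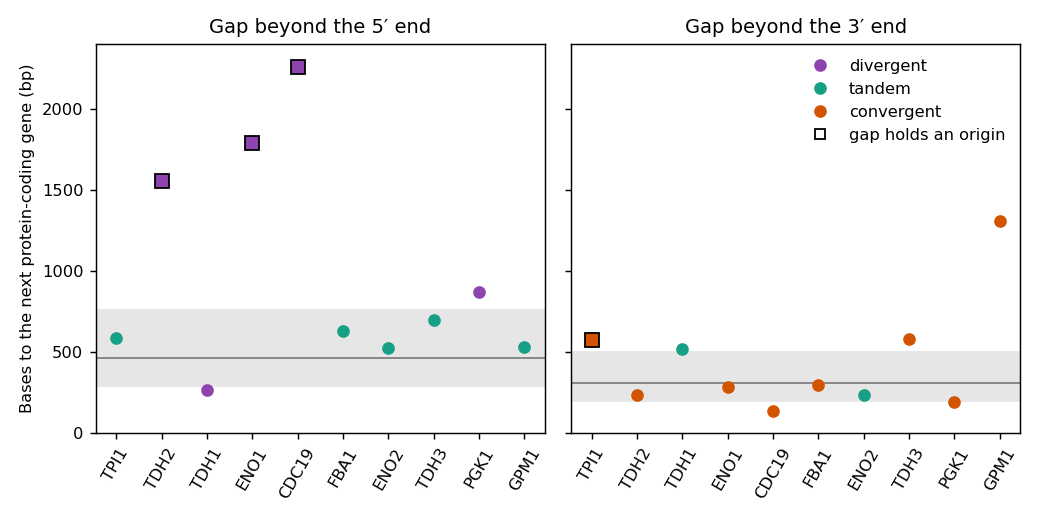
Length of the gap to the next protein-coding gene (y axis, in bp) beyond the 5′ end (left) and the 3′ end (right) of each gene, in order of distance to the nearest origin. Colours give the gap type and squares mark gaps that hold an origin; the line and grey band are the median and quartiles over all genes, 460 bp on the left and 307 bp on the right. The 3 squares on the left are the 3 longest 5′ gaps when all protein-coding genes count as neighbours.

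All 10 coding sequences were in 1 segment, against 94.6% of all genes, and all 10 carried a qualifier of experimental evidence, against 80.7%. Each had exactly the length that its stated protein and a stop codon require. Both lengths come from the same annotation, and coding lengths were not compared with those of another build. Lengths ran from 744 bp at GPM1 to 1503 bp at CDC19, and 6 of the 10 were shorter than the median of 1224 bp over all genes. Of the 20 neighbours, 13 carried the qualifier of experimental evidence, and 19 were also the next gene in the order of the R64 gene table. The exception was the 5′ side of ENO2, at YHR173C. A tRNA gene lay within 10 kb of 4 of the 10 genes, TDH3, PGK1, GPM1 and ENO1, against 32.9% of all genes, and an LTR, a retrotransposon's long terminal repeat, within 10 kb of TDH3, PGK1 and GPM1, against 26.7%. Both counts are close to the background.

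Other genes of the pathway and its branches, 23 in all, had a median distance to the nearest origin of 7.80 kb, which cannot be set against the 2.51 kb of genes chosen for theirs. Of these 23, 7 lay within 5 kb, against 20.2% of all genes, and 13 pointed away from the nearest origin, against 49.6%. Both were true of 3, against 9.25% of all genes. Of 6 upper glycolysis genes, which phosphorylate glucose and make fructose-1,6-bisphosphate, the nearest was the hexokinase gene HXK1 at 2.03 kb and the farthest the hexokinase gene HXK2 at 39.7 kb, and 4 pointed away. Of the 3 minor paralogs, PYK2 was nearest at 4.12 kb and GPM3 farthest at 53.9 kb, and both pointed toward the origin.

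Of 6 fermentation genes, for pyruvate decarboxylases and alcohol dehydrogenases, PDC5 was nearest at 1.21 kb and ADH3 farthest at 33.0 kb, and 3 pointed away. The pair that makes glycerol 3-phosphate, GPD1 and GPD2, lay at 4.22 kb and 50.7 kb and both pointed away. For gluconeogenesis, PCK1 lay at 10.9 kb and FBP1 at 14.4 kb. Among the transcription factors of glycolytic genes, TYE7 was nearest at 3.95 kb and GCR2 farthest at 14.3 kb, and 2 of 4 pointed away. No difference between these groups was tested.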

How the data were processed

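Features were read from the deposited annotation of L03, whose start and end positions in base pairs the authors derived from version R64-1-1 of the Saccharomyces Genome Database S288C genome, per the file headers. The step from R64-1-1 to L03 is not described in the labels or headers. Genes were gene features with an mRNA, less 2 dubious reading frames, which left 5857; a gene of another kind counted as a neighbour only in an alternative. Origins were the 274 features typed as such. The next gene on a side was the nearest that was neither nested in the gene nor holding it, and an origin was beside a gene if its midpoint lay in that gap. The R64 gene table is on another build and served for names and gene order only. The 10 genes and all lists were chosen with earlier results of these data known, so counts over all genes are given as background and no test was made. All 10 genes and the origins next to them on both sides are named, but only part of their neighbours. Of the other lists, the nearest and farthest gene are named. Protein identity and promoter motifs had been planned and were not analysed here. Placement was tested on simulated data with known answers, where genes did not overlap and each origin stood in the middle of a gap. An origin that overlaps a gene, as at TDH2, was not among the simulated cases. Python 3.11.15, pandas 2.3.3, numpy 2.4.6 and matplotlib 3.10.9 were used.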

Additional observations from a re-analysis of the deposited data

How the results depend on the processing

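Of 29 alternatives, 28 left the median, or the count as a share of the genes counted, within 1.5 times of its value, and 3 of the 29, on neighbours with experimental evidence, were added after the data were seen. The exception was the median distance to the nearest origin with 1 gene per reaction, that is without TDH1, TDH2 and ENO1, which was 4.25 kb over 7 genes against 2.51 kb over 10. Those 3 genes are among the 4 nearest to an origin, so leaving them out moves the median by construction; of the 7 that were left, 4 lay within 5 kb, 5 pointed away and 2 had an origin beside them. Measured from the 5′ end, the 3′ end or edge to edge, 7 or 8 genes lay within 5 kb. The count of 8 pointing away could hardly change in these settings and is no check. No nearest origin had its midpoint inside a gene, and the edge rule took the side from midpoints. With origins inside genes left out, the count within 5 kb and the median distance could not change either. These fixed values and the direction counts are among the 28. With limits of 2.5 kb and 10 kb, 5 and 9 genes lay within. The share of all genes was computed at 5 kb only, so these counts have no background. They are also among the 28, though they use another limit than the count they were set against. Over all genes the lower quartile of the distance was 6.29 kb and the median 13.5 kb. With neighbours restricted to genes with experimental evidence, 5 genes had an origin beside them and 5 had a divergent 5′ gap, now with GPM1 and without TDH1. The shares of all genes were not computed for that restriction. Gaps that end at a gene without such evidence then grew, as at the 3′ ends of TPI1, from 573 bp to 2777 bp, and CDC19, from 137 bp to 1754 bp. The alternative on promoter motifs was not run. No paired analysis was possible because the annotation belongs to no library. Origin activity was not examined, and an annotated origin may be used rarely or not at all.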

Other observations

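The distance of the 10 genes to the centromere ran from 17.8 kb at TDH2 to 505 kb at ENO1, with 4 on left arms and 6 on right arms. Its median was 109.8 kb against 215 kb over all genes. Arm length bounds this distance and was not adjusted for. The chromosomes ran from 225 kb (I, with CDC19) to 1532 kb (IV, with TPI1). The distance of the 10 genes to the nearer chromosome end ran from 72.2 kb at CDC19 to 556 kb at TPI1, and the median of 186 kb was near the 207 kb of all genes. The nearest tRNA gene lay between 1.49 kb, at GPM1, and 66.7 kb, at CDC19. TDH2 was the single gene of the 10 with 2 origins within 10 kb, ARS1016 and ARS1017.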
